A study of Mus musculus with 3 samples.

Results

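The genes described here are 10 mouse germline genes, Dazl, Ddx4, Sycp1, Sycp3, Mael, Tdrd1, Brdt, Stk31, Asz1 and Slc25a31, which belong to the class of genes known to be kept silent outside the germ line by methylation of their promoter DNA. They were chosen by name from the 22350 protein-coding genes annotated on the 19 autosomes and the X chromosome, and all 10 were found in the annotation (GENCODE vM1 on mm9). For each gene, enriched regions were counted within 2 kb of every annotated transcript start, which is called the promoter in what follows, and in the gene with 10 kb of flank. Positions are given from 1 transcription start site (TSS) per gene, the start with the most annotated transcripts or, where starts tied, the most upstream of them, which was so at Dazl, Sycp1, Tdrd1, Brdt and Asz1.

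The study asked by ChIP-Seq in mouse embryonic stem cells (ESCs) where the histone variant H2A.Z lies when its acidic patch, a charged surface of the nucleosome, is changed. The H2AZ_WT and H2AZ_AP3 groups, written H2A.Z-WT and H2A.Z-AP3 below, express H2A.Z with a yellow fluorescent protein (YFP) tag and were immunoprecipitated with an anti-GFP antibody. H2A.Z-AP3 carries the substitutions G92N, D97N and S98K, which put residues of H2A in place of those of H2A.Z. The H3K27me3 group, with the genotype WT, was immunoprecipitated with an antibody against histone H3 trimethylated at lysine 27, the mark of Polycomb repression. No doxycycline dose is recorded for the H3K27me3 sample. Bases in both H2A.Z and H3K27me3 regions are thus shared coordinates of separate libraries, and joint presence on the same chromatin was not measured.

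The tagged transgenes were delivered by lentivirus into KH2 ESCs, driven by a CMV promoter that is induced with doxycycline at 1 µg/ml, and YFP-positive cells were sorted. In both transgenic lines the endogenous H2A.Z was depleted with short hairpins against its 3′ untranslated region, under blasticidin selection, so that the control line carries the transgene and the depletion too. The strain of all 3 samples is labelled V6.5 (129SvJaexC57BL/6), while the transgenic lines are described as KH2 derivatives. The labels do not say whether a line is a clone or a pool.

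Each group is 1 library, so no value below has a replicate error and no difference between groups was tested. The lists give the start and end of enriched regions at a threshold of 1e-9, used for all values unless stated, and at 1e-12, with no height and no read number. The H2A.Z-WT list held 78359 regions, the H2A.Z-AP3 list 14599 and the H3K27me3 list 16970, with median lengths of 250, 175 and 250 bp. Because depth is unknown, a promoter without a region is one where no region was called, and fewer regions in one library cannot be told apart from lower depth or weaker enrichment in that library.

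Germline genes of this class become active when primordial germ cells lose DNA methylation, and they then serve meiosis, transposon defence and germ cell RNA control. In ESCs they are known targets of a variant Polycomb complex whose MGA-MAX and E2F6 subunits recognise E-box and E2F motifs, acting beside DNA and histone H3 lysine 9 methyltransferases. Across genomes, H2A.Z and DNA methylation tend to occupy different sites, and in ESCs H2A.Z and H3K27me3 meet at many promoters of silent developmental genes. The lists measure neither DNA methylation nor RNA, so whether these promoters were methylated or silent in the cells used was not checked here, and the labelled cell type could not be checked by marker expression.

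The E-box motif CACGTG, which reads the same on both strands, was found between 250 bp before and 50 bp after the TSS in 8 of the 10 promoters, against 7.75% of the promoters of all 22350 genes. The E2F motif GCGGGAA, searched on both strands, was found in 3 of the 10, against 5.59% of all promoters, and both motifs stood together in those 3, against 0.591%. The matches are shown because they are the sequence feature that most of these promoters share. Each line gives 30 bases of the mm9 reference on the strand of the gene, 5′ to 3′, with the motif in capitals; the strand after the coordinates is that of the gene.
Ddx4, E-box, chr13:113442530-113442559, minus strand: ggcgtccgcccgCACGTGcagccgtttaag
Sycp1, E-box, chr3:102740100-102740129, minus strand: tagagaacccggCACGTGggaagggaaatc
Sycp3, upstream E-box, chr10:87922256-87922285, plus strand: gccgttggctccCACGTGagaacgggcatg
Sycp3, downstream E-box, chr10:87922277-87922306, plus strand: acgggcatggagCACGTGctaggaggcggg
Mael, E-box, chr1:168169081-168169110, minus strand: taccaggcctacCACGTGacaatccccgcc
Tdrd1, E-box, chr19:56900676-56900705, plus strand: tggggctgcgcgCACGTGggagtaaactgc
Brdt, E-box, chr5:107760123-107760152, plus strand: cgcaggcacagtCACGTGgcagaccctggc
Stk31, E-box, chr6:49345471-49345500, plus strand: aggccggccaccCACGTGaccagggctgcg
Slc25a31, E-box, chr3:40512688-40512717, plus strand: cgcaactggaaaCACGTGttatggtcacat
Ddx4, E2F, chr13:113442636-113442665, minus strand: ccgtccatgggGCGGGAAgtcgcgcgccgc
Sycp3, E2F, chr10:87922174-87922203, plus strand: aggaaggaacaGCGGGAAagtgctgcttct
Slc25a31, E2F on the opposite strand, chr3:40512801-40512830, plus strand: cagcgcccgctTTCCCGCcagggtaaagct
All 9 E-box matches lay before the TSS, from 11 bp in Tdrd1 to 223 bp in Mael. The windows of Dazl and Asz1 held neither motif, which says only that these letters are absent from those 300 bp. A match is a match of letters, and binding was not measured.

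Every one of the 10 promoters carried H2A.Z-WT in both lists. The background was 61.7% of all genes at 1e-9 and 60.0% at 1e-12, and 83.2% of the 7368 genes whose CpG count lay in the range of these 10. Between 500 and 1100 bp were covered per gene, with a median of 712.5 bp. The median was 650 bp among all genes with an H2A.Z-WT promoter region and 700 bp among those of them in that CpG range, so coverage per called gene was near the background. Over the 10 genes H2A.Z-WT covered 7150 bp, or 11.7% of the promoter windows, against 7.55% of the windows of all genes, those without a region included. At 1e-12 the coverage was 6425 bp and 10.5%, against 6.33%, and all 12 promoter regions at 1e-9 held a region of the stricter list.

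**Figure D1:**
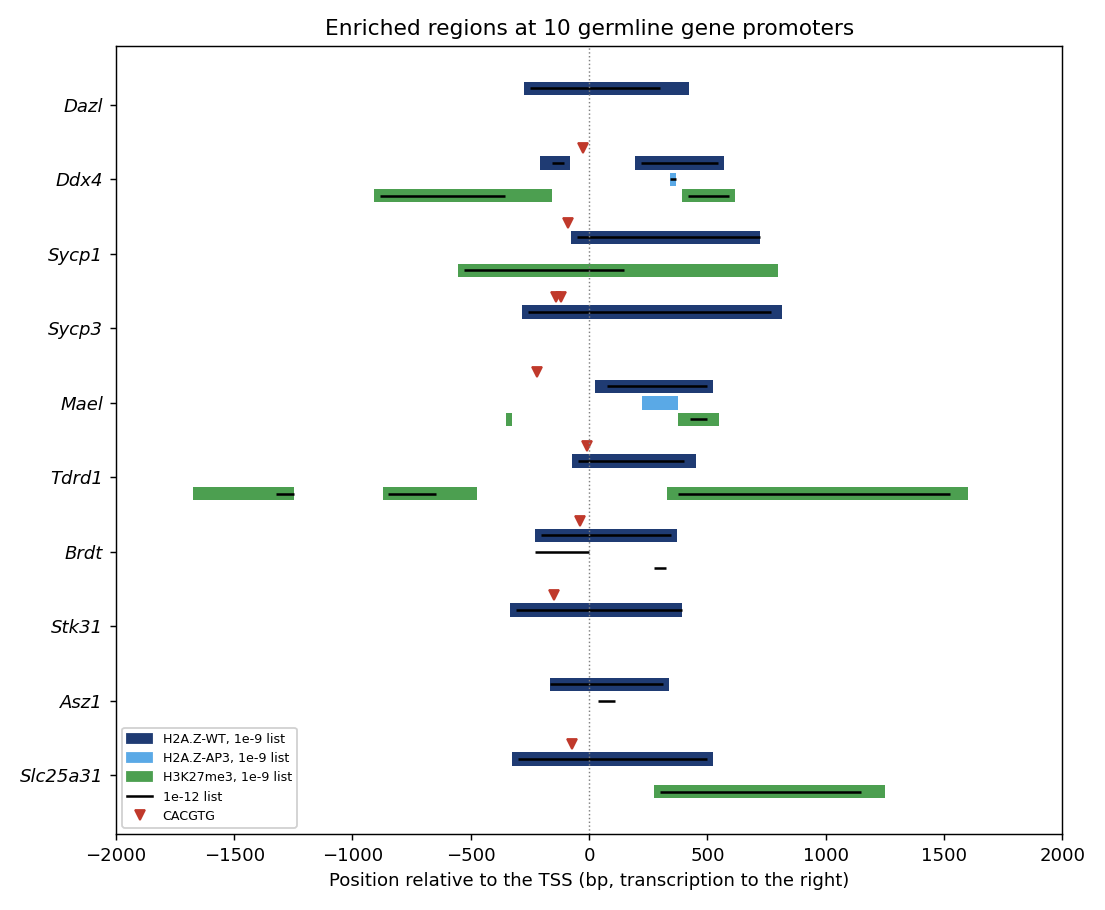
Regions of each library within 2000 bp of the TSS of the 10 genes, with position in bp on the horizontal axis and transcription running to the right. Bars are regions at 1e-9 in the H2A.Z-WT library (dark blue), the H2A.Z-AP3 library (light blue) and the H3K27me3 library (green), black lines are regions at 1e-12 and red triangles are CACGTG matches; H2A.Z-WT lies over the TSS of 8 genes and leaves out that of Ddx4 and Mael, and H3K27me3 lies over the TSS of Sycp1 alone.

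Dazl and Ddx4 encode RNA-binding proteins of germ cells, a translational regulator and an RNA helicase. At Dazl (ENSMUSG00000010592.7, chr17:50418719-50432924, minus strand) a single H2A.Z-WT region of 700 bp, chr17:50432501-50433200, ran from 276 bp before the TSS to 423 bp after it. No H2A.Z-AP3 and no H3K27me3 region lay within its 10 kb flank in either list, and the nearest were 216477 bp and 101799 bp from the TSS. H2A.Z-WT was the only called region at Dazl.

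At Ddx4 (ENSMUSG00000021758.7, chr13:113388541-113442518, minus strand) H2A.Z-WT was split around the TSS, with 375 bp in an intron, chr13:113441951-113442325, and 125 bp upstream, chr13:113442601-113442725. The gap between them held the TSS and the E-box, which stood 29 bp before the TSS and 54 bp from the nearer region. Its E2F match, 136 bp before the TSS, lay inside the upstream region. H2A.Z-AP3 was called over 25 bp inside the intronic H2A.Z-WT region in both lists, which is a single bin of the authors' grid. H3K27me3 covered 975 bp, as 750 bp from 158 to 907 bp upstream and 225 bp from 393 to 617 bp downstream, so all 3 libraries had a region at this promoter and none covered the TSS itself.

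Sycp1 and Sycp3 encode structural proteins of the synaptonemal complex, the transverse filament and the axial element. At Sycp1 (ENSMUSG00000027855.8, chr3:102622422-102740023, minus strand) H2A.Z-WT covered 800 bp, chr3:102739301-102740100, from 77 bp before to 722 bp after the TSS. An H3K27me3 region of 1350 bp, chr3:102739226-102740575, contained the whole of it, and the E-box 94 bp before the TSS lay in H3K27me3 and 12 bp outside H2A.Z-WT. At 1e-12 the H3K27me3 coverage was 675 bp and that of H2A.Z-WT 775 bp. No H2A.Z-AP3 region was called within the flank of Sycp1, and the nearest lay 166228 bp from the TSS.

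At Sycp3 (ENSMUSG00000020059.3, chr10:87922314-87935981, plus strand) H2A.Z-WT covered 1100 bp, chr10:87922126-87923225, the most of the 10 genes. The region held both E-boxes and the E2F match, and it spanned the TSS as well as the start of the protein-coding transcript 95 bp upstream. Neither H2A.Z-AP3 nor H3K27me3 was called in the gene or its flank in either list. The pair of synaptonemal genes thus shared H2A.Z-WT over the TSS and differed in H3K27me3, with 1350 bp at Sycp1 and no region at Sycp3.

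Mael, Tdrd1 and Asz1 act in the piRNA pathway that silences transposons in the male germ line. At Mael (ENSMUSG00000040629.3, chr1:168131516-168168875, minus strand) the H2A.Z-WT region of 500 bp, chr1:168168351-168168850, began 25 bp after the TSS and ended 524 bp after it. Inside it lay the longest H2A.Z-AP3 promoter region of the 10 genes at 1e-9, 150 bp from 225 to 374 bp downstream, which was absent at 1e-12. H3K27me3 covered 200 bp, as 175 bp from 375 to 549 bp downstream and 25 bp upstream, and 75 bp at 1e-12. The H2A.Z-AP3 and H3K27me3 regions of Mael met end to end within H2A.Z-WT and did not overlap.

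At Tdrd1 (ENSMUSG00000025081.7, chr19:56900699-56944502, plus strand) H2A.Z-WT covered 525 bp, chr19:56900626-56901150, from 73 bp before to 451 bp after the TSS, with the E-box inside it. H3K27me3 covered 2100 bp, the most of the 10 genes, in regions of 425 and 400 bp upstream and 1275 bp downstream. These flanked the TSS on both sides and left it free, and 125 bp of H2A.Z-WT lay in H3K27me3. H2A.Z-AP3 was not called at the promoter in either list.

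At Asz1 (ENSMUSG00000010796.5, chr6:18000964-18059061, minus strand) H2A.Z-WT covered 500 bp, chr6:18058726-18059225, from 164 bp before to 335 bp after the TSS. No H2A.Z-AP3 region was called at 1e-9, where the nearest was 60590 bp from the TSS, but the 1e-12 list held one of 75 bp inside the H2A.Z-WT region. H3K27me3 was not called at Asz1 in either list. Mael and Tdrd1 thus had H3K27me3 beside H2A.Z-WT, and Asz1 did not.

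Brdt encodes a testis-specific bromodomain protein, Stk31 a protein with tudor and kinase domains, and Slc25a31 the germ cell form of the mitochondrial ADP/ATP carrier. At Brdt (ENSMUSG00000029279.9, chr5:107760178-107816077, plus strand) H2A.Z-WT covered 600 bp over the TSS, chr5:107759951-107760550, and 350 bp in an intron, chr5:107788376-107788725, which ended 131 bp before an internal start annotated for a noncoding transcript. The only H2A.Z-AP3 region at 1e-9, 50 bp, lay 806 bp from that internal start, 27823 bp from the TSS and outside H2A.Z-WT, and it was absent at 1e-12. Counted from protein-coding starts alone, Brdt had no H2A.Z-AP3 at 1e-9 and the number of genes with H2A.Z-AP3 was 2.

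At Stk31 (ENSMUSG00000023403.8, chr6:49345603-49419500, plus strand) a single H2A.Z-WT region of 725 bp, chr6:49345301-49346025, ran from 333 bp before to 391 bp after the TSS. The other libraries had no region in the gene or its flank in either list, as at Dazl and Sycp3. At Slc25a31 (ENSMUSG00000069041.6, chr3:40512777-40529515, plus strand) H2A.Z-WT covered 850 bp, chr3:40512451-40513300, and held both motif matches. H3K27me3 covered 975 bp there, from 274 to 1248 bp after the TSS, so that 250 bp at the downstream end of H2A.Z-WT also lay in H3K27me3.

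**Figure D2:**
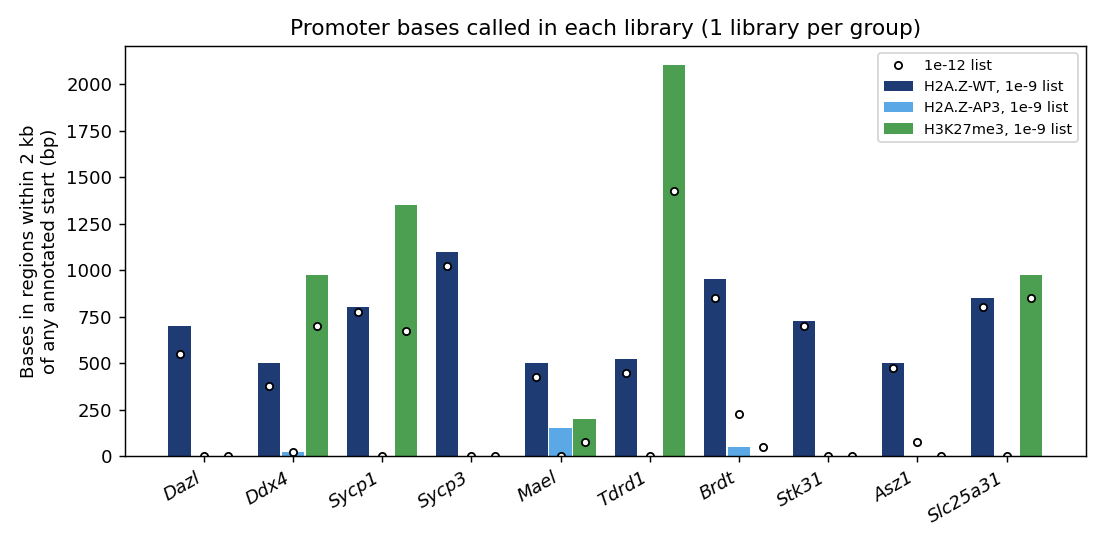
Bases within 2 kb of any annotated start that lie in regions of each library, in bp, for the 10 genes; bars are the 1e-9 lists, open circles the 1e-12 lists, and each bar is 1 library with no error. At 1e-9, H2A.Z-WT covers 500 to 1100 bp in every gene, H2A.Z-AP3 at most 150 bp, and H3K27me3 200 to 2100 bp in 5 genes. At 1e-12, H2A.Z-AP3 covers 225 bp and H3K27me3 50 bp at Brdt.

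A region of H2A.Z-AP3 lay at 3 of the 10 promoters, Ddx4, Mael and Brdt, against 23.2% of all genes, 35.5% of the 13782 genes with an H2A.Z-WT promoter region, and 38.8% of those whose CpG count was also in the range of the 10. The count of genes was thus near the background. The coverage was short, 25, 150 and 50 bp, with a median of 50 bp against 200 bp over all genes called in this library. Summed over the 10 genes, H2A.Z-AP3 covered 225 bp, or 0.369% of the promoter windows against 1.08% for all genes. At 1e-12 it covered 325 bp, 0.533% against 0.740%, and over both lists together 525 bp, 0.861% against 1.19%, so that the distance to the background depended on the list. Of the 7150 bp of H2A.Z-WT, 175 bp, at Ddx4 and Mael, also lay in H2A.Z-AP3.

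The genes with H2A.Z-AP3 differed between the lists. At 1e-12 they were Ddx4, with 25 bp, Brdt, with 225 bp, and Asz1, with 75 bp, and only Ddx4 had the same region in both lists. The regions of Brdt and Asz1 shared no base with the 1e-9 list, which was so for a promoter region at 4.32% of all genes in H2A.Z-AP3 and 1.02% in H3K27me3. Taken over both lists, 4 of the 10 genes had an H2A.Z-AP3 promoter region, against 26.1% of all genes. Stk31 and Asz1 lie on chromosome 6. Of the 1171 genes of that chromosome 67.5% had H2A.Z-WT and 43.6% had H2A.Z-AP3, and of the 790 with H2A.Z-WT 62.5% had H2A.Z-AP3. Neither had H2A.Z-AP3 at 1e-9, and without that chromosome 3 of 8 genes had it.

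H3K27me3 was called at 5 of the 10 promoters, Ddx4, Sycp1, Mael, Tdrd1 and Slc25a31, against 18.2% of all genes, 28.0% of genes with H2A.Z-WT and 28.8% of genes with H2A.Z-WT and a CpG count in range. It covered 5600 bp, 9.18% of the promoter windows of the 10 genes against 3.57% of those of all genes, and at 1e-12 3775 bp and 6.19% against 2.65%. Among the called genes the coverage was 200, 975, 975, 1350 and 2100 bp, with a median of 975 bp against 1000 bp over all called genes. Of the 9 promoter regions, 8 held a region of the 1e-12 list, the exception being the 25 bp upstream of Mael. The 1e-12 list added 50 bp at Brdt, and then 6 of the 10 genes were called, against 15.7%.

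Bases in both H2A.Z-WT and H3K27me3 were found at all 5 promoters with both. They were 225 of 975 bp of H3K27me3 at Ddx4, 800 of 1350 at Sycp1, 150 of 200 at Mael, 125 of 2100 at Tdrd1 and 250 of 975 at Slc25a31, in all 1550 bp, so that most of the H3K27me3 bases lay inside H2A.Z-WT at Sycp1 and Mael and outside it at the other genes. This was 21.7% of the H2A.Z-WT bases of the 10 genes and 27.7% of their H3K27me3 bases, the latter against 36.9% over all genes with both; Tdrd1 alone holds 2100 of the 5600 bp. H3K27me3 lay over the TSS in 1 gene, Sycp1, against 3.08% of all genes, and on both sides of it within 2 kb in 4 of the 5 genes, Ddx4, Sycp1, Mael and Tdrd1, against 54.2% of the 3705 genes with H3K27me3 there. Mael counts through its 25 bp upstream. At 1e-12 both sides were covered in 3 of the 6 genes with H3K27me3 there, a share not counted over all genes in that list. At Slc25a31 it lay downstream only.

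By the libraries that had a promoter region at 1e-9, the genes fell into 4 patterns. H2A.Z-WT alone was found at 4 genes, Dazl, Sycp3, Stk31 and Asz1, a pattern of 30.4% of all genes. H2A.Z-WT with H3K27me3 and no H2A.Z-AP3 was found at 3, Sycp1, Tdrd1 and Slc25a31, against 9.39%. All 3 libraries had a region at Ddx4 and Mael, against 7.90%, and H2A.Z-WT with H2A.Z-AP3 and no H3K27me3 was found at Brdt, against 14.0%. Brdt counts through the 50 bp near its internal start. The patterns depended on the list. At 1e-12 Brdt had all 3 libraries, Asz1 had H2A.Z-WT with H2A.Z-AP3, and Mael had H2A.Z-WT with H3K27me3. The shares of these patterns over all genes were not counted at 1e-12.

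H2A.Z-WT lay over the TSS itself in 8 of the 10 genes, against 25.9% of all genes, or 5793 of the 13782 with an H2A.Z-WT promoter region. The share among genes in the CpG range of the 10 was not counted. These regions were 500 to 1100 bp long, with a median of 712.5 bp against 750 bp over all genes. H2A.Z-WT covered more bases downstream than upstream of the TSS in all 10, counted within 1 kb, as it did in 69.6% of the 12325 genes with H2A.Z-WT there. Together the 10 genes had 4908 bp downstream and 1884 bp upstream, a downstream share of 72.3% against 63.9% over all genes. H3K27me3 had 2598 bp downstream and 1727 bp upstream, or 60.1% against 57.4%. The 175 bp of H2A.Z-AP3 within 1 kb, from Ddx4 and Mael only, were all downstream, against 55.7% over all genes. This side depended on the list, since at 1e-12 the longest H2A.Z-AP3 promoter region, 225 bp at Brdt, lay upstream.

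The 10 genes have 25 annotated starts, of which 20 lie within 2 kb of the TSS used here and 5 farther inside the genes Sycp1, Tdrd1, Brdt, Stk31 and Asz1. H2A.Z-WT was found within 2 kb of all 20 of the former. Of the 5 internal starts, only that of Brdt had H2A.Z-WT near it. Over all 25 starts, H2A.Z-AP3 was found near 3 and H3K27me3 near 7. Close starts of 1 gene share most of their window, so these counts repeat the same regions. At Tdrd1, for example, the TSS and the starts 66 and 77 bp from it had the same 2100 bp of H3K27me3. The share over the starts of all genes was not counted.

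The E-box matches were set against the regions. Of the 9 matches, 6 lay wholly inside H2A.Z-WT, in Sycp3 (both), Tdrd1, Brdt, Stk31 and Slc25a31, and those of Ddx4, Sycp1 and Mael lay 54, 12 and 243 bp outside it. All 3 E2F matches lay inside H2A.Z-WT. The motif window lies at the TSS, which H2A.Z-WT covered in 8 of the 10 genes, so many matches inside it follow from the window. The share of matches inside H2A.Z-WT was not counted for other genes. Of the 819 genes with the E-box and a CpG count in the range of the 10, H2A.Z-WT was called at 78.0%, H2A.Z-AP3 at 30.4% and H3K27me3 at 21.9%, against 83.2%, 33.9% and 24.9% of all genes in that range. The presence of CACGTG was thus not accompanied by more frequent calls among genes with similar CpG counts.

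The promoters were of intermediate to high CpG content. Within 500 bp of the TSS the CpG count ran from 38 in Asz1 and 41 in Brdt, through 47 in Sycp3, 54 in Tdrd1, 58 in Stk31, 61 in Mael and Slc25a31, 65 in Sycp1 and 72 in Dazl, to 77 in Ddx4. The median was 59.5 against 40 over all genes, and 9 of the 10 lay above the latter. The ratio of observed to expected CpG ran from 0.53 to 0.75, with a median of 0.70 against 0.54. Over all genes, H2A.Z-WT was called at 12.2% of promoters with 0 to 9 CpG, at 81.2% with 30 to 39 and at 81.4% with 70 to 79, so that the 10 genes sit where most promoters carried H2A.Z-WT.

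**Figure D3:**
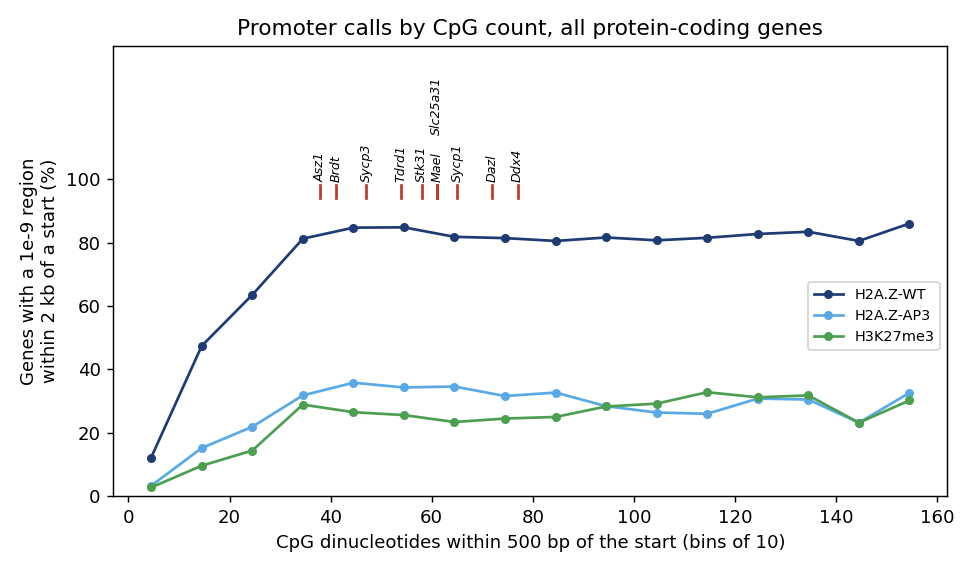
Percent of all protein-coding genes with a 1e-9 region within 2 kb of a start (vertical axis) by the number of CpG dinucleotides within 500 bp of the TSS, in bins of 10 (horizontal axis, counts above 159 not drawn), for the 3 libraries; red ticks mark the CpG counts of the 10 genes. The ticks lie from 38 to 77, where H2A.Z-WT is called at more than 80 percent of genes.

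Genes that start within the 10-kb flanks gave a comparison inside the same loci. Slc38a9, an amino acid transporter gene that starts 8466 bp upstream of Ddx4, had 1025 bp of H2A.Z-WT and 800 bp of H2A.Z-AP3 at its promoter, where Ddx4 had 500 and 25 bp. A630007B06Rik, whose start lies 4019 bp upstream of Tdrd1, had 900 bp of H2A.Z-WT and 450 bp of H2A.Z-AP3, where Tdrd1 had 525 and 0 bp. In both cases H3K27me3 was called at the germline gene, over 975 and 2100 bp, and not at the neighbour.

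Vwa2, which starts 48040 bp downstream of the Tdrd1 TSS, had 1150 bp of H2A.Z-WT, 2800 bp of H3K27me3 and 25 bp of H2A.Z-AP3. Apart from the 3 promoter regions, all 4 H2A.Z-AP3 regions in the flanks of the 10 genes lay at these neighbours. Inside the bodies of the genes, H2A.Z-WT was also called in introns of Sycp1, over 200 and 75 bp, and of Tdrd1, over 75, 550, 50, 225 and 50 bp, and a region of 1025 bp lay past the 3′ end of Slc25a31. With these, the genes and flanks held 23 H2A.Z-WT, 7 H2A.Z-AP3 and 17 H3K27me3 regions, in 10, 4 and 5 genes, against 75.1%, 39.3% and 24.9% of all genes.

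**Figure D4:**
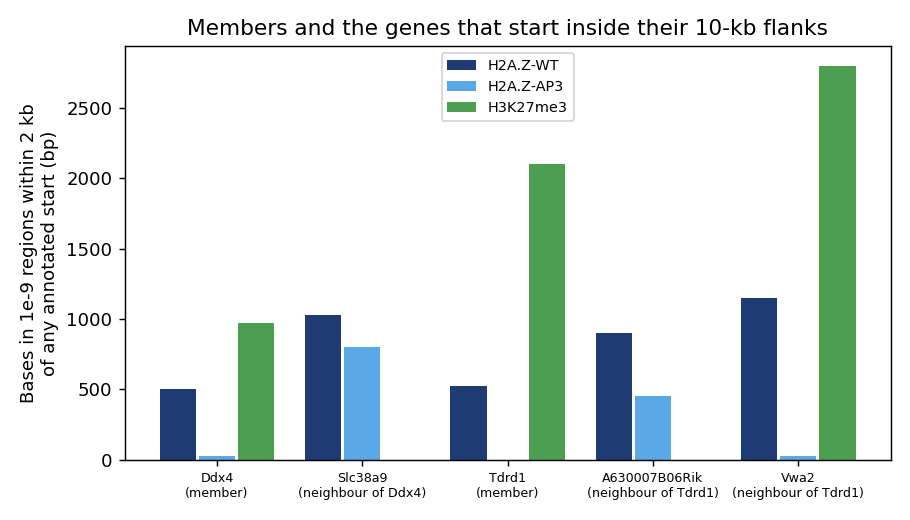
Bases in 1e-9 regions within 2 kb of any annotated start, in bp, for Ddx4 and Tdrd1 and for the protein-coding genes that start inside their 10-kb flanks; each bar is 1 library with no error. H2A.Z-AP3 covers 800 bp at Slc38a9 and 450 bp at A630007B06Rik but 25 and 0 bp at Ddx4 and Tdrd1, while Vwa2, with 2800 bp of H3K27me3, has 25 bp of it.

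Other genes of the same processes were counted in the same way. Of 45 other meiotic and piRNA genes, H2A.Z-WT was called at 35 (77.8%), H2A.Z-AP3 at 14 (31.1%) and H3K27me3 at 21 (46.7%), 16 of the latter with H2A.Z-WT. Over all genes the shares were 61.7%, 23.2% and 18.2%, and at 1e-12 H3K27me3 was called at 12 of the 45, against 15.7% of all genes. Their CpG counts were lower, with a median of 44, and of the 27 in the range of the 10 genes 24 had H2A.Z-WT. Stra8, which licenses meiotic entry, had the most H2A.Z-WT with 2525 bp, followed by Sohlh1 with 1983 bp, Tdrd6 with 1850 bp and Dpep3 with 1832 bp. The first genes in alphabetical order with none were Gtsf1, Msh4, Nanos2 and Nanos3. The E-box was found in 12 of the 45 and the E2F motif in 9, beside 8 and 3 of the 10 genes. Over all genes the shares of these motifs were 7.75% and 5.59%.

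Genes of late spermatids, which package DNA and build the acrosome and tail, had smaller shares of calls than all genes (61.7%, 23.2% and 18.2%). Of 16, H2A.Z-WT was called at 6 (37.5%), H2A.Z-AP3 at 0 at 1e-9, and H3K27me3 at 1 (6.25%), Prm1 with 450 bp. Their median CpG count was 15, and none had the E-box, against 7.75% of all genes. Over all genes with 10 to 19 CpG the shares were 47.4%, 15.2% and 9.63%, and with 0 to 9 CpG 12.2%, 3.30% and 2.77%. The smaller shares cannot be told apart from those of promoters with few CpG. Tnp2 had the most H2A.Z-WT with 1028 bp, then Spaca1 with 450, Acr with 375 and Odf1 with 300 bp, while Acrv1, Akap4, Gapdhs and Izumo1 had none.

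Of 22 genes for the machinery that is known to repress germline genes, H2A.Z-WT was called at 18 (81.8%), H2A.Z-AP3 at 2 (9.09%) and H3K27me3 at 5 (22.7%). For H2A.Z-WT the share was 61.7% over all genes and 83.2% in the CpG range of the 10. Of the 8 repressor genes in that range, 4 had H2A.Z-WT. For H2A.Z-AP3 the share was 23.2% over all genes and 33.9% in the CpG range of the 10. The H2A.Z-AP3 regions covered 25 bp at E2f6 and 75 bp at Dnmt1. The H3K27me3 regions covered 1150 bp at E2f6, 325 bp at Yaf2, 725 bp at Hdac2, 575 bp at Dnmt3a and 50 bp at Dnmt3b, and that of Dnmt3b was absent at 1e-12. This count was near the background of 18.2% of all genes and 24.9% of those in the CpG range of the 10. The most H2A.Z-WT lay at Ehmt2 with 2825 bp, then Dnmt3a with 1225, Dnmt3b with 1075 and E2f6 with 750 bp, and none at Hdac1, Kdm5c, Mga and Pcgf6. The median CpG count of these genes was 86.5, and their median H2A.Z-WT coverage, uncalled genes included, was 287.5 bp against 300 bp over all genes. Over all genes with 80 to 89 CpG that median was 550 bp.

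**Figure D5:**
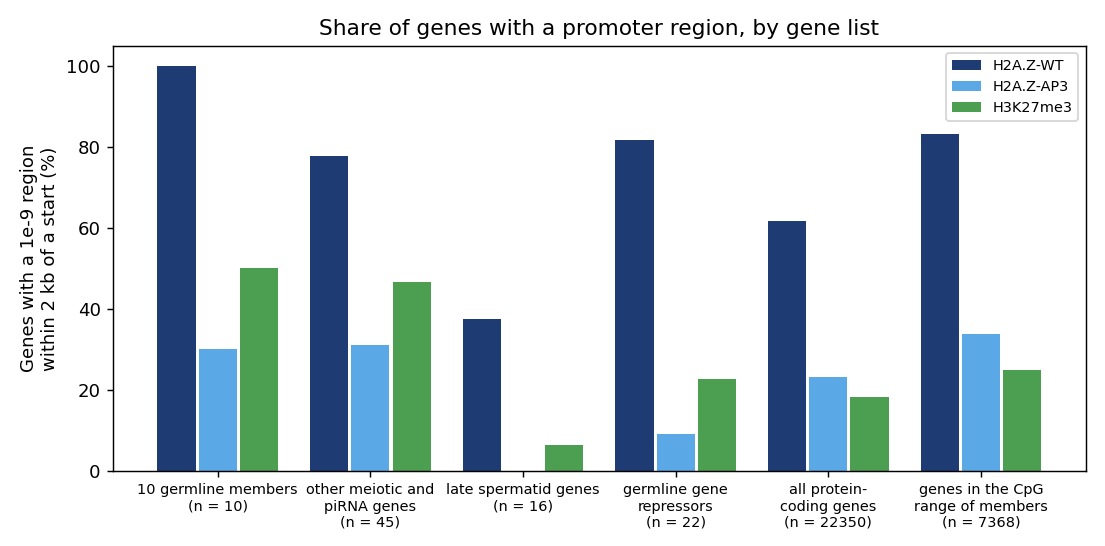
Percent of genes with a 1e-9 region within 2 kb of a start, from 0 to 100, for the 10 germline genes, the 3 other gene lists, all protein-coding genes and the genes with a CpG count in the range of the 10; each bar is 1 library. H2A.Z-WT reaches 10 of 10 germline genes against 61.7% of all genes and 83.2% of those in the CpG range. H3K27me3 reaches 5 of 10 against 18.2% and 24.9%, and H2A.Z-AP3 3 of 10 against 23.2% and 33.9%.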

How the data were processed

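The 3 ChIP-Seq libraries, for tagged wild-type H2A.Z, its acidic patch mutant and H3K27me3, were grouped by genotype and antibody labels, 1 library per group. The authors aligned reads to mm9 with Bowtie (0.12.3), extended them, allocated them to 25 bp bins and called enriched bins with a Poisson model at 1e-9, with a further minimum on their fold over input; bedtools is also named in the submitters' processing notes. The deposited lists hold only region coordinates for each library, called separately. A further list of each library is named for 1e-12, a setting that the methods do not describe. Depth is not given in the lists.

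Regions were intersected with 22350 GENCODE vM1 genes at an overlap of at least 1 bp, within 2 kb of starts and in genes with 10 kb of flank, and bases and genes were counted in Python 3.11.15 with NumPy 2.4.6 and Matplotlib 3.10.9. CpG and motifs were read from the mm9 reference. The counting was tested on simulated data. The members and gene lists were chosen with earlier results of these data known. All 10 genes were described with their regions, and of each list up to 4 genes with most H2A.Z-WT bases, up to 4 with none, and called genes where at most 5. Of 46 other meiotic and piRNA genes 45 matched; Tdrd5 is not annotated as protein-coding. Alternatives covered the threshold, window, starts, region length, chromosome 6 and motif letters.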

Additional observations from a re-analysis of the deposited data

Results flagged for a closer look

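Regions of the 1e-12 lists that share no base with the 1e-9 list of the same library lay at the promoters of Brdt and Asz1. A region called at the stricter threshold would be inside one called at the looser threshold if the lists differed in the threshold alone. At Brdt, H2A.Z-AP3 had such a region of 225 bp, chr5:107759951-107760175, which ended 3 bp before the TSS and lay wholly inside H2A.Z-WT, while the nearest H2A.Z-AP3 region at 1e-9 was 27938 bp from it at its nearest point. H3K27me3 had one of 50 bp at Brdt, chr5:107760451-107760500, also inside H2A.Z-WT and 40826 bp from the nearest region at 1e-9. At Asz1, H2A.Z-AP3 had one of 75 bp, chr6:18058951-18059025, inside H2A.Z-WT and 60663 bp from the nearest at 1e-9. Over all genes, a promoter region of the 1e-12 list that shares no base with the 1e-9 list was found at 4.32% of genes in the H2A.Z-AP3 library, 5.26% in the H2A.Z-WT library and 1.02% in the H3K27me3 library. How the 1e-12 lists were made is not given in the sources used here, and the cause was not tested.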

How the results depend on the processing

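Of 104 recomputed values over 21 results, 93 stayed close to the value reported (a count or sum within 1.5 times) and 11 did not. The number of the 10 genes with H2A.Z-AP3, 3, was 1 when at least 100 bp had to lie in the window and 1 with regions of at least 100 bp only. The H2A.Z-AP3 bases, 225 bp, were 525 bp over both lists together and 675 bp with 5 kb each side. The H3K27me3 bases, 5600 bp, were 2108 bp with 500 bp each side. At 1e-12, H2A.Z-AP3 was called at 1 late spermatid gene in place of 0 and at 0 repressor genes in place of 2, and H3K27me3 at 12 other meiotic and piRNA genes in place of 21. With the letters TCACGTG the E-box was found in 4 of the 10 genes in place of 8, against 4.17% of all genes, and with GCGGGA the E2F motif in 5 in place of 3, against 24.6%. The median CpG count was 39.5 with 250 bp each side in place of 59.5, since a shorter window holds fewer CpG. H2A.Z-WT was called at all 10 genes under each alternative run for that count, and at 8 of 8 without chromosome 6. With 500 bp each side of the TSS the E-box was found in all 10 genes, against 16.9%. No paired analysis was possible because each group is 1 library and no result comes from a test. Without depth, region length and number cannot be compared between libraries as amounts of a protein.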
